A study of Rattus norvegicus with 12 samples.

Results

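The BTG, IER, GADD45 and ZFP36 immediate early genes, which restrain growth or destabilise messenger RNA, were followed after gonadotropin-releasing hormone (GnRH). The list holds 10 genes: Btg1, Btg2, Ier2, Ier3, Ier5, Gadd45a, Gadd45b, Gadd45g, Zfp36 and Zfp36l1. A probe set, a group of short oligonucleotides that reads 1 transcript, was a member when the platform annotation gave it 1 gene symbol and that symbol was on the list. The rule found 11 probe sets for 9 of the 10 genes, among 31042 probe sets that are not array controls. No probe set carried the symbol Btg2 alone, so Btg2 has no value here. Ier5 had 3 probe sets and each of the other genes had 1. Of the 11, 9 passed a filter on low signal, 1 for each gene, and the pair that did not pass both belong to Ier5.

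RNA came from cultures of rat anterior pituitary enriched for gonadotropes, which secrete the gonadotropins luteinizing hormone (LH) and follicle-stimulating hormone. The donors were adult female Sprague-Dawley rats ovariectomized 2 weeks earlier, with 13 to 15 pituitaries pooled per experiment. On culture day 3, in medium with 0.2 nM estradiol, 6 samples received 10 nM GnRH for 40 min and 6 received vehicle. Each agent had 2 samples in each of 3 enrichment sets, I (replicates 1 and 2), II (3 and 4) and III (5 and 6). The labels call the samples biological replicates, but do not say whether the 2 samples of an agent within a set came from separate animals. The 3 sets were separate preparations, so n = 6 per group below counts samples, not independent preparations. By the labels 40 to 60% of the enriched cells stained for LH, so other pituitary cells contributed to every array. Of 11 gonadotrope marker genes 10 were measured, and none was at a signal of 0. The measured markers of the other cell types summed below were also never at 0, so this does not show which cells were present.

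BTG1 and BTG2 bind the CCR4-NOT deadenylase and slow proliferation. IER2, IER3 and IER5 are products of genes that growth factors and stress switch on quickly. GADD45 proteins bind the kinase MAP3K4, the replication clamp PCNA and cell cycle kinases, and are induced by stress. ZFP36, also called tristetraprolin, and ZFP36L1 bind AU-rich elements of messenger RNA and recruit CCR4-NOT, which removes the poly(A) tail. In gonadotropes GnRH acts through a Gq-coupled receptor, calcium, protein kinase C and MAP kinases, and induces immediate early genes such as Egr1 and Fos.

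RefSeq (build GRCr8) gave a promoter for 9 of the 10 genes, and the 250 bases before the gene start were searched on both strands. Motifs bound by factors that these kinases activate were counted beside all 33469 rat promoters. The full CRE, TGACGTCA, was found in 2 of 9 (Btg2 and Ier2), against 1.59% of all promoters. Its core TGACG, which the full site contains, was found in 3 of 9 (also Gadd45a), against 18.2%. The EGR motif GCGNGGGCG was found in 3 of 9 (Btg1, Btg2 and Zfp36), against 4.29%. A CArG box, the core of the serum response element, was found in 1 of 9 (Zfp36), against 1.5%, and its first base is also the last base of a match to the GC box GGGCGG. The AP-1 motif TGANTCA was found in 1 of 9 (Zfp36l1), against 6.34%. GC content ran from 50.4 to 72.0% over the 9 with a median of 65.2%, against a median of 51.2% over all promoters. The GC box was found in 6 of 9, against 30.5%. The EGR motif is itself made mostly of G and C, and the part of GC content in its count was not tested. Such matches describe the letters in this window only. The upstream sequences are printed for Gadd45a, the gene with the largest GnRH difference, for Ier2, which has a full CRE, and for Zfp36, which has EGR and CArG matches. In GRCr8 they lie at chr4:97486800-97487049 (minus strand), chr19:40399123-40399372 (plus strand) and chr1:92799109-92799358 (minus strand), each directly upstream of its gene. Each reads 5′ to 3′ toward the gene, and capitals mark the CRE core in Gadd45a, the CRE in Ier2, and the EGR motif and then the CArG box in Zfp36.
Gadd45a: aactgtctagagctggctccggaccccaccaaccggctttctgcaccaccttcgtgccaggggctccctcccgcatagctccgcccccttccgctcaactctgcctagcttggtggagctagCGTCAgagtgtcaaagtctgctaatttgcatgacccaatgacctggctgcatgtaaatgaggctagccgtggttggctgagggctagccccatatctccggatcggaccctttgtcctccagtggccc
Ier2: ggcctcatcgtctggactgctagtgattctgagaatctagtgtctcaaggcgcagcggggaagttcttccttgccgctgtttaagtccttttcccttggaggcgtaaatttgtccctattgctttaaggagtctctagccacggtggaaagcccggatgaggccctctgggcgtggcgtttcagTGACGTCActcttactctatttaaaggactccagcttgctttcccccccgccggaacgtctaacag
Zfp36: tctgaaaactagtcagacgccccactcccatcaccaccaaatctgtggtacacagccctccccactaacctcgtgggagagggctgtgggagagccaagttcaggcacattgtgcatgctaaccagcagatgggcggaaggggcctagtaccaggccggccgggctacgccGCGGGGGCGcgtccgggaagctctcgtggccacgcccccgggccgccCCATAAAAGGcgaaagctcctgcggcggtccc

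The arrays differed in the signal of their control probe sets. Bacterial control transcripts, added to every hybridisation, had a geometric mean signal of 2264 to 11705 on 5 arrays, the 4 of set I and vehicle 5, and of 53482 to 320020 on the other 7. The mean log2 level of these controls was 15.56 in GnRH arrays and 14.61 in vehicle arrays, and that difference was within the spread (exact within-set permutation test, two-sided, p = 0.5, n = 6 per group). Background controls, probe sets for absent bacterial transcripts, had a signal of 14.75 to 22.42 on the 5 arrays of low control signal. On the other 7 it was 52.83 to 183.5. All these signals were read after scaling, and the cause of the split was not tested. Vehicle 3 differed most from the other arrays. Its Spearman correlations with them had a median of 0.336, and the same median was 0.618 to 0.686 for each other array. Member differences that moved by over 1.5 times without vehicle 3 or vehicle 5 are given without them too.

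No gene of the list passed the test between GnRH and vehicle. In a limma fit over 18625 probe sets with the enrichment set as a block, 0 of 9 members had an adjusted p under 0.05, against 0.00537% of all probe sets. The 1 probe set called was that of Fosb, an AP-1 subunit gene (log2 difference 2.29 ± 0.32 SE, limma adjusted p = 0.0411). The count of called probe sets was 0 in 11 of the 12 omissions of 1 array and 1 without vehicle 3. At an unadjusted p under 0.05, limma called 0 of the 9 members, against 3.45% of all probe sets. The mean was higher in GnRH arrays for 6 members and lower for 3, and 53.6% of all probe sets were higher. The median log2 difference of the 9 genes was 0.25, against 0.04 over 10680 genes. Without vehicle 3 it was 0.10 with 7 members higher and 2 lower, against -0.04 over all genes, and without vehicle 5 it was 0.24 with the same counts, against 0.06. No member had the same sign in all 3 sets, while 12.6% of all probe sets were higher and 11.4% lower in every set. The GnRH and vehicle arrays overlapped for every member, while 0.0537% of all probe sets were higher on each GnRH array than on every vehicle array and 0.0537% lower. Within single sets limma called 1 of the 9 members at an unadjusted p under 0.05 in set I, against 3.7% of all probe sets. It called 0 in set II, against 4.34%, and 0 in set III, against 2.65%. All log2 values are of the signal plus 16, which understates differences of dim genes.

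**Figure D1:**
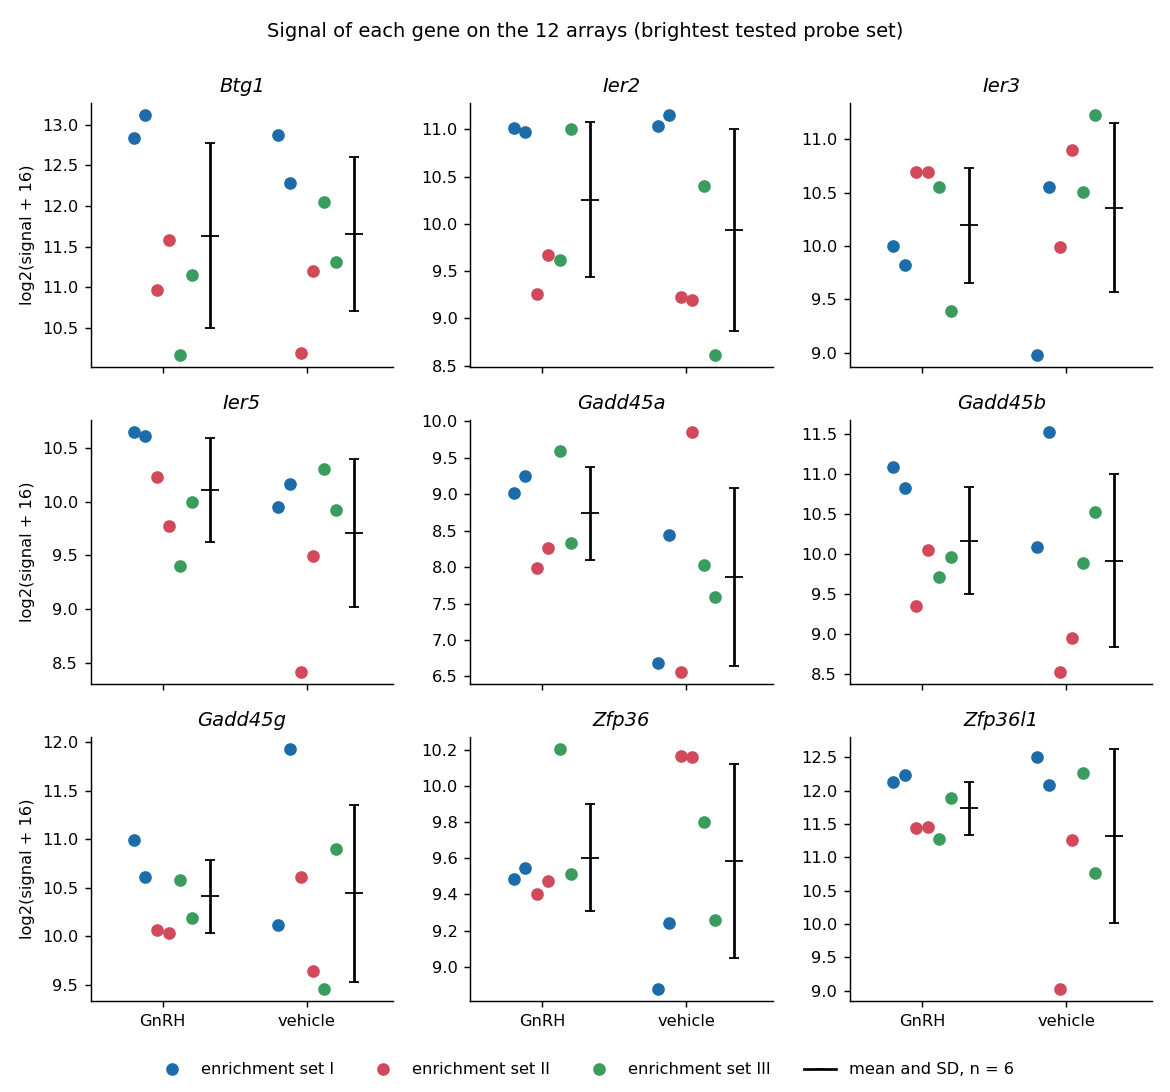
Each panel plots 1 gene's log2(signal + 16) on the 6 GnRH arrays (left) and the 6 vehicle arrays (right), coloured by enrichment set, with the mean and SD of each group. The groups overlap in every panel, and the 4 set I arrays stand high for Btg1 under both agents.

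Btg1, the antiproliferative gene whose product recruits CCR4-NOT, is read by probe set 1367657_at. Its signal was 7296, 8894, 1983, 3045, 1134 and 2249.7 in GnRH 1 to 6, against 7463, 4978, 1152, 2338, 4216 and 2525 in vehicle 1 to 6. The set I arrays were the highest under both agents, and the groups overlapped. The fold was 0.990, with a 95% interval of 0.616 to 1.59 (log2 -0.01 ± 0.32 SE, n = 6 per group; limma adjusted p = 1.00). The set differences, given here and for each gene in the order I, II, III, were 0.40, 0.58 and -1.02 in log2, and in set III both GnRH arrays were below both vehicle arrays. Without GnRH 5 the difference was 0.23, without vehicle 5 it was 0.20, and without vehicle 3 it was -0.21.

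Ier2, which encodes a small nuclear protein and has the CRE shown in the printed sequence, is read by 1372389_at. Its signal was 2049.9, 1986, 596, 799.8, 771 and 2034 in GnRH 1 to 6, against 2075, 2260.5, 582, 572, 1336 and 376 in vehicle 1 to 6. In set II both GnRH arrays exceeded both vehicle arrays, while in set III the groups overlapped and in set I both GnRH arrays were below both vehicle arrays. The fold was 1.25 (95% interval 0.758 to 2.05; log2 0.32 ± 0.34 SE; limma adjusted p = 0.981, n = 6 per group), with set differences of -0.10, 0.25 and 0.80. Without vehicle 6 the log2 difference was 0.03, and without vehicle 5 it was 0.48.

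Ier3, whose product modulates cell survival, is read by 1388587_at. Its signal was 1009, 889, 1641, 1636, 1489.8 and 655 in GnRH 1 to 6, against 489, 1489, 1004, 1895, 1437 and 2384 in vehicle 1 to 6. The highest and the lowest of the 12 arrays were both vehicle arrays, vehicle 6 and vehicle 1. The fold was 0.890 (95% interval 0.537 to 1.48; log2 -0.17 ± 0.34 SE; limma adjusted p = 0.993, n = 6 per group), with set differences of 0.14, 0.25 and -0.89. Without GnRH 6 the difference was 0.07, without vehicle 1 it was -0.40, and without vehicle 3 it was -0.33.

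Ier5, whose product binds protein phosphatase 2A and the heat shock factor HSF1, is read by 3 probe sets. The tested one, 1389355_at, had a signal of 1585, 1544, 1180.5, 857, 661 and 1004 in GnRH 1 to 6, against 974, 1129, 326, 706, 1248 and 956 in vehicle 1 to 6. In sets I and II each GnRH array exceeded both vehicle arrays of its set, and in set III the groups overlapped. The fold was 1.32 (95% interval 0.832 to 2.09; log2 0.40 ± 0.31 SE; limma adjusted p = 0.981, n = 6 per group), with set differences of 0.57, 1.04 and -0.42. Without vehicle 3 the log2 difference was 0.18.

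The other Ier5 probe sets were dim and were not tested. Probe set 1375202_at had a signal of 111, 18.1, 69.6, 401, 378 and 301 in GnRH 1 to 6, against 56.9, 65.6, 222, 575, 29.6 and 387 in vehicle 1 to 6. Probe set 1389882_at had 12.0, 19.7, 119, 34.0, 171 and 116 in GnRH 1 to 6, against 15.6, 10.2, 209, 55.5, 10.1 and 74.4 in vehicle 1 to 6. Signal exceeded the mean of the array's background controls, probe sets for absent bacterial transcripts, on 10 of 12 arrays for 1375202_at and on 5 of 12 for 1389882_at. Their set differences were -0.23, -0.99 and 1.38 for 1375202_at and 0.13, -0.62 and 1.69 for 1389882_at. Over all sets they were 0.05 for 1375202_at and 0.40 for 1389882_at, the same sign as for 1389355_at. In set II and in set III, however, both had the opposite sign to 1389355_at. With signal so near the background controls, these differences are given as values only.

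**Figure D2:**
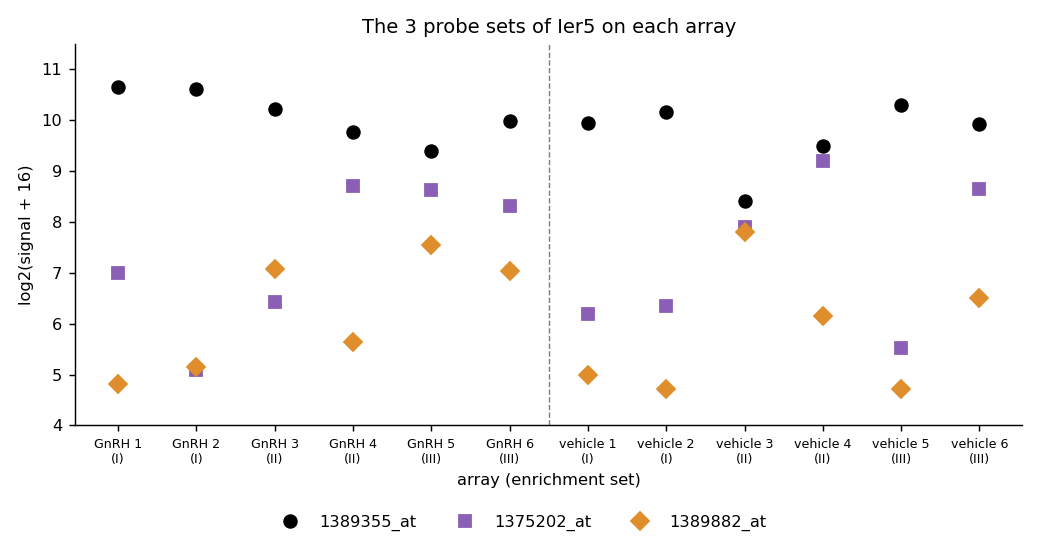
The log2(signal + 16) of the 3 Ier5 probe sets is plotted by array, with the GnRH arrays left and the vehicle arrays right. Probe set 1389882_at was dimmer on the 4 set I arrays and vehicle 5 (10.1 to 19.7 signal units) than on the other 7 (34.0 to 209), a pattern that 3.54% of all tested probe sets showed.

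Gadd45a, the GADD45 gene best known as a target of p53, is read by 1368947_at and had the largest difference of the list. Its signal was 501, 595, 237, 292, 757 and 306 in GnRH 1 to 6, against 87.2, 332, 78.3, 909, 245 and 177 in vehicle 1 to 6. All GnRH values lay inside the vehicle range, since vehicle 4 was the highest of the 12 arrays, while vehicle 1, 3 and 6 were below every GnRH array. The fold was 1.84 (95% interval 0.798 to 4.24; log2 0.88 ± 0.57 SE; limma adjusted p = 0.981, n = 6 per group), and GnRH was the higher in 26 of the 36 GnRH-vehicle pairs. The set differences were 1.57, -0.08 and 1.15. In set I both GnRH arrays exceeded both vehicle arrays (limma unadjusted p = 0.0147, adjusted p = 0.997, n = 2 per group), where 3.7% of all probe sets had an unadjusted p under 0.05. The difference over all sets was 1.41 without vehicle 4 and 0.57 without vehicle 1. On vehicle 3 the signal was below that array's background controls, whose geometric mean was 183.5, and without vehicle 3 the difference was 0.59.

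Gadd45a was the 1 member of 9 that counted as up-regulated by the rule in the series' design text, which asks for a fold of at least 1.5 and for concordance in at least 50% of pairwise comparisons. Of the 36 pairs, 61.1% reached 1.5-fold higher in GnRH and 13.9% reached it in the other direction. Applied to all probe sets, the rule called 7.62% as higher and 7.6% as lower.

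Gadd45b and Gadd45g encode the other activators of MAP3K4, upstream of p38 and JNK. Gadd45b, read by 1372016_at, had a signal of 2157, 1802, 637, 1043, 819.7 and 983 in GnRH 1 to 6, against 1074, 2921, 353, 481, 928 and 1458 in vehicle 1 to 6. The highest and the lowest arrays were vehicle 2 and vehicle 3. The fold was 1.19 (95% interval 0.738 to 1.91; log2 0.25 ± 0.32 SE; limma adjusted p = 0.981, n = 6 per group), with set differences of 0.15, 0.96 and -0.37. Without GnRH 4 the log2 difference was 0.07, and without vehicle 3 it was 0.10.

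Gadd45g, read by 1388792_at, had a signal of 2019, 1547, 1052, 1032, 1511 and 1154 in GnRH 1 to 6, against 1093, 3873, 1549, 782, 686 and 1897 in vehicle 1 to 6. All GnRH values lay inside the vehicle range, with vehicle 2 the highest and vehicle 5 the lowest. The fold was 0.979 (95% interval 0.593 to 1.61; log2 -0.03 ± 0.34 SE; limma adjusted p = 1.00, n = 6 per group), with set differences of -0.22, -0.08 and 0.21. Leaving out vehicle 2 gave 0.22, leaving out vehicle 3 gave 0.10, and leaving out vehicle 5 gave -0.24.

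Zfp36, the tristetraprolin gene with the EGR and CArG matches in the printed sequence, is read by 1387870_at. Its signal was 699.6, 731, 660.4, 695, 1164 and 715 in GnRH 1 to 6, against 453, 589.8, 1132, 1130.5, 877 and 596 in vehicle 1 to 6. GnRH 5 was the highest of the 12 arrays and stood apart from the other GnRH arrays, which were close together. Both GnRH arrays exceeded both vehicle arrays in set I, and both were below them in set II. The fold was 1.01 (95% interval 0.651 to 1.58; log2 0.02 ± 0.30 SE; limma adjusted p = 1.00, n = 6 per group), with set differences of 0.46, -0.73 and 0.33. The difference was -0.11 without GnRH 5, 0.11 without vehicle 3 and 0.05 without vehicle 5.

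Zfp36l1, which encodes the second AU-rich element binding protein of the list, is read by 1369959_at. Its signal was 4457, 4795, 2752, 2786, 2474 and 3775 in GnRH 1 to 6, against 5819.7, 4331, 503, 2436, 4910.0 and 1724 in vehicle 1 to 6. Vehicle 1 was the highest array and vehicle 3 the lowest. The fold was 1.34 (95% interval 0.767 to 2.33; log2 0.42 ± 0.38 SE; limma adjusted p = 0.981, n = 6 per group), with set differences of -0.12, 1.30 and 0.07. Without vehicle 3 the difference was 0.03, and without vehicle 5 it was 0.65.

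**Figure D3:**
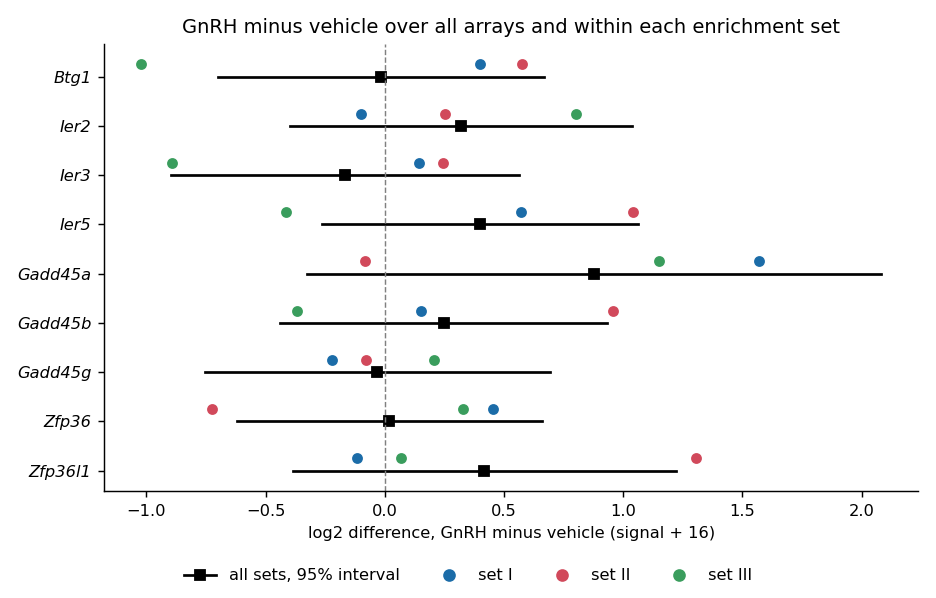
The log2 difference, GnRH minus vehicle, of each gene is plotted with its 95% interval over all 12 arrays and with the value in each enrichment set. Every interval includes 0, and no gene has set values that all lie on 1 side of 0.

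Most members had a smaller SD among GnRH than among vehicle arrays. The SD of log2 signal was larger in vehicle arrays for 8 of 9 members, all but Btg1, against 57.4% of all probe sets, and without vehicle 3 for 7 of 9, against 40.7%. The median SD of the 9 genes was 0.539 in GnRH arrays and 0.948 in vehicle arrays, or 0.864 in vehicle arrays without vehicle 3. Over all tested probe sets these medians were 0.82, 0.902 and 0.678 in the same order. Each SD includes differences between sets, and leaving out vehicle 3 takes an array of set II from the vehicle side alone. The difference in spread was not tested.

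Whether the difference between agents itself differed between sets was tested as an interaction of set and agent. None of the 9 members passed (limma adjusted p 0.927 to 0.995), against 0% of all probe sets, and the smallest unadjusted p was that of Btg1 (0.0817). At an unadjusted p under 0.05 limma called 5.36% of all probe sets and 0 members.

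Levels between enrichment sets were tested with the agent in the fit, and 3 members were called in the main setting, though not under all others. Btg1 (limma adjusted p = 0.0244), Gadd45b (limma adjusted p = 0.0466) and Ier2 (limma adjusted p = 0.0468) were called, 3 of 9 members, against 6.02% of all probe sets. Set II minus set I was -1.79 for Btg1, -1.70 for Ier2 and -1.66 for Gadd45b on the log2 scale, and set III minus set I was -1.61, -1.13 and -0.86 in the same gene order. By set and agent the mean log2 signal of Btg1 was 12.98 in GnRH and 12.58 in vehicle arrays of set I, 11.27 in GnRH and 10.70 in vehicle arrays of set II, and 10.66 in GnRH and 11.68 in vehicle arrays of set III. Every set I array was above every array of the other sets, while neighbours in the order of the other 4 means had overlapping arrays. Zfp36l1 was not called (limma adjusted p = 0.119), and the other 5 had adjusted p from 0.276 to 0.965.

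These calls depended on the processing. With quantile normalization limma adjusted p was 0.0613 for Btg1, 0.0712 for Ier2 and 0.0792 for Gadd45b, and with no intensity trend it was 0.0693, 0.0882 and 0.0863 in the same gene order. With a pseudocount of 1 the limma adjusted p was 0.0546 for Ier2 and 0.0531 for Gadd45b. Median centring kept the 3 calls and added Ier5 (limma adjusted p = 0.0494), Gadd45g (0.0392) and Zfp36l1 (0.0273). Array quality weights kept them too, with limma adjusted p of 0.00108 for Btg1, 0.00518 for Ier2 and 0.0222 for Gadd45b. These weights also added Zfp36l1 (limma adjusted p = 0.0494).

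The signal of the hybridisation controls also differed between sets. On the 5 arrays of low control signal, 2 GnRH and 3 vehicle, Btg1 ran from 4216 to 8894 signal units, against 1134 to 3045 on the other 7, without overlap. Zfp36l1 ran from 4331 to 5820 on those 5 arrays, against 503 to 3775 on the other 7, again without overlap, and 6.75% of all probe sets were brighter in this way. Ier2 ran from 1336 to 2260.5 on those 5 arrays, against 376 to 2034 on the other 7, and Gadd45b from 928 to 2921, against 353 to 1458, both with overlap. Vehicle 5, the 1 array of set III among the 5, had 4216 units of Btg1 and 4910 of Zfp36l1. With the control signal as a covariate, set II minus set I was -0.78 for Btg1 (limma adjusted p = 0.446), -1.39 for Ier2 (0.519) and -1.36 for Gadd45b (0.517). Its size was thus smaller for Btg1 and nearer to the main value for Ier2 and Gadd45b. The part of the control signal in the levels cannot be told apart from that of the set where all 4 arrays of set I were low. The ratio of 3′ to 5′ signal of the Gapdh control probe sets also differed. Its log2 was 4.478 to 5.45 on set I arrays and 2.956 to 4.373 on the others, without overlap. For Actb it was 4.156 to 4.824 on set I arrays and 2.45 to 4.902 on the others, with overlap. The part of these ratios in the levels was not tested. Single arrays decided the calls too: without GnRH 1, GnRH 2 or vehicle 1, limma adjusted p of Btg1 was 0.0999, 0.107 and 0.104. Ier2 lost its call without GnRH 1, 2, 3, 4 or 5 or vehicle 1, 2 or 4, and Gadd45b without GnRH 1, 2, 3 or 6 or vehicle 1, 2, 3, 4 or 6. Without vehicle 5 Btg1 (limma adjusted p = 0.00523), Ier2 (0.0243) and Gadd45b (0.0354) all stayed called.

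Summed signal of cell type markers also differed between sets, in both directions. For gonadotrope markers it was 265350 to 485140 in set II and 44967 to 515640 in set III, against 81493 to 130990 in set I, and Cga and Lhb made up 65.8 to 97.1% of that sum on each array. For somatotrope and lactotrope markers it was 548360 to 1171600 in set II and 37368 to 659140 in set III, against 75474 to 119400 in set I, with 92.2 to 99.7% from Gh1 and Prl. The lowest value of set III for both lists was vehicle 5. Leukocyte sums were 1895 to 2951 in set II and 1520 to 1833 in set III, against 1083 to 1359 in set I, and erythrocyte sums were 591 to 1332 in set II, against 275 to 551 in set I. Thyrotrope sums were lower in set II, at 4004 to 9459, against 9574 to 24234 in set I. Corticotrope and melanotrope sums were 943 to 2303 in set II and 1019 to 1506 in set III, against 1913 to 2885 in set I. Folliculostellate, endothelial and fibroblast sums overlapped between all sets. The part of these differences in the members' levels was not tested. In such mixed samples fewer cells of a type, less RNA per cell and a difference in array signal cannot be told apart. Background controls also differed, with a signal of 14.75 to 22.42 on set I arrays and 59.04 to 183.5 on set II arrays. Of the measured markers, 4 of 8 leukocyte and 1 of 3 erythrocyte genes passed the filter on low signal. The part of background and scaling in these sums was not tested.

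**Figure D4:**
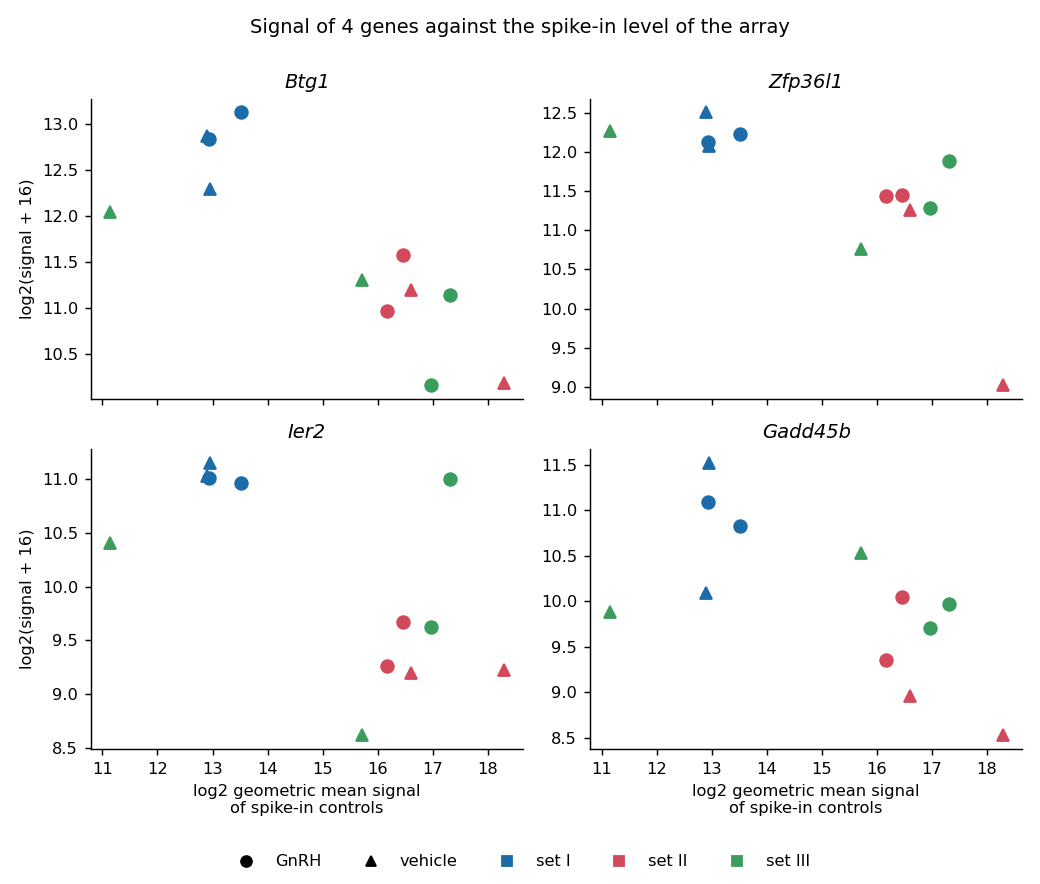
The log2(signal + 16) of 4 genes is plotted against the log2 geometric mean signal of the hybridisation controls, 1 point per array (circles GnRH, triangles vehicle, coloured by set). The 5 arrays of low control signal lie above the other 7 for Btg1 and Zfp36l1.

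Among close relatives of the members, 5 of 6 listed genes were tested, and 5 were higher and 0 lower on average in GnRH arrays, with a median log2 difference of 0.51. Without vehicle 3 the counts were 4 and 1 and the median was 0.19. None passed the adjusted threshold or an unadjusted p under 0.05. Btg3, an antiproliferative relative of Btg1, and Zfp36l2, a relative of Zfp36, were higher in all 3 sets, 2 of 5 genes, against 12.6% of all probe sets. Btg3 had 0.66 ± 0.60 SE (0.19 without vehicle 3) and Zfp36l2 had 0.38 ± 0.31 (0.53 without vehicle 3). Tob1, of the same family as Btg1, had 0.67 ± 0.57, with set differences of -0.03, 3.00 and -0.97, and 0.36 without vehicle 3. Tob2 had 0.51 ± 0.42 and 0.05 without vehicle 3, and Ier5l had 0.10 ± 0.58 and -0.22 without vehicle 3.

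The deadenylases that BTG and ZFP36 proteins recruit, and the enzymes that then degrade the transcript, were also counted. Of 16 listed CCR4-NOT and PAN deadenylase genes 13 were tested, 6 higher and 7 lower, with a median of -0.02 (-0.16 without vehicle 3) and 0 called. Cnot11 had 0.55 ± 0.32 SE (0.33 without vehicle 3), Pan3 0.77 ± 0.47 (0.19 without vehicle 3) and Cnot4 -1.03 ± 0.64. Of 14 decapping and exonuclease genes 11 were tested, 4 higher and 7 lower, with a median of -0.25. The decapping activator Patl1 had -1.01 ± 0.47 (limma unadjusted p = 0.0473, adjusted p = 0.981, n = 6 per group), and -0.91 without vehicle 3, where its limma unadjusted p was 0.08. Edc4 had -0.40 ± 0.26 and Exosc10 -0.74 ± 0.48. In that list 1 gene had an unadjusted p under 0.05, as lower, against 1.58% of all probe sets.

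A list of other RNA-binding protein genes also holds the kinase gene Mapkapk2. It gave 8 tested of 10, 5 higher and 3 lower, with a median of 0.23. Without vehicle 3 the counts were 3 and 5 and the median was -0.08. Zc3h12a, which encodes the ribonuclease regnase-1, was the 1 gene of this list with an unadjusted p under 0.05, as higher, against 1.87% of all probe sets. Its difference was 0.97 ± 0.45 SE (limma unadjusted p = 0.0481, adjusted p = 0.981, n = 6 per group), and its set differences were 0.96, 1.34 and 0.61. Without vehicle 3 it was 0.60 (limma unadjusted p = 0.112). Tial1 had 0.38 ± 0.27 (0.16 without vehicle 3). Mapkapk2, whose kinase phosphorylates tristetraprolin, had -0.42 ± 0.34, and -0.65 without vehicle 3 (limma unadjusted p = 0.0415, adjusted p = 0.985). Among transcripts with AU-rich elements 6 of 16 were bright enough to test, 3 higher and 3 lower, with a median of 0.02 (0.14 without vehicle 3). Nfkbiz had -0.92 ± 0.50, Myc -0.70 ± 0.65 (-0.41 without vehicle 3) and Ccl2 0.58 ± 0.59 (0.38 without vehicle 3).

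Partners of the GADD45 proteins gave 11 tested of 14, 5 higher and 6 lower, with a median of -0.01 (-0.06 without vehicle 3). Mapk11, a p38 kinase gene, had 1.19 ± 0.62 SE, with set differences of -0.22, 3.65 and 0.15, and 0.91 without vehicle 3. The cell cycle inhibitor gene Cdkn1a had 0.92 ± 0.55, and 0.22 without vehicle 3. The p38 gene Mapk14 had -0.39 ± 0.33, and -0.60 without vehicle 3. A list of cell cycle regulators, which mixes inhibitors with cyclins and the p53 inhibitor Mdm2, had 11 of 14 tested, 5 higher and 6 lower, with a median of -0.07. Cdkn1b, an inhibitor, had 0.84 ± 0.45 (0.61 without vehicle 3) and Mdm2 0.43 ± 0.24 (0.30 without vehicle 3). The limma fit over all arrays called 0 genes of these lists after adjustment, and none of the GADD45 partner, cell cycle or AU-rich transcript genes had an unadjusted p under 0.05.

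**Figure D5:**
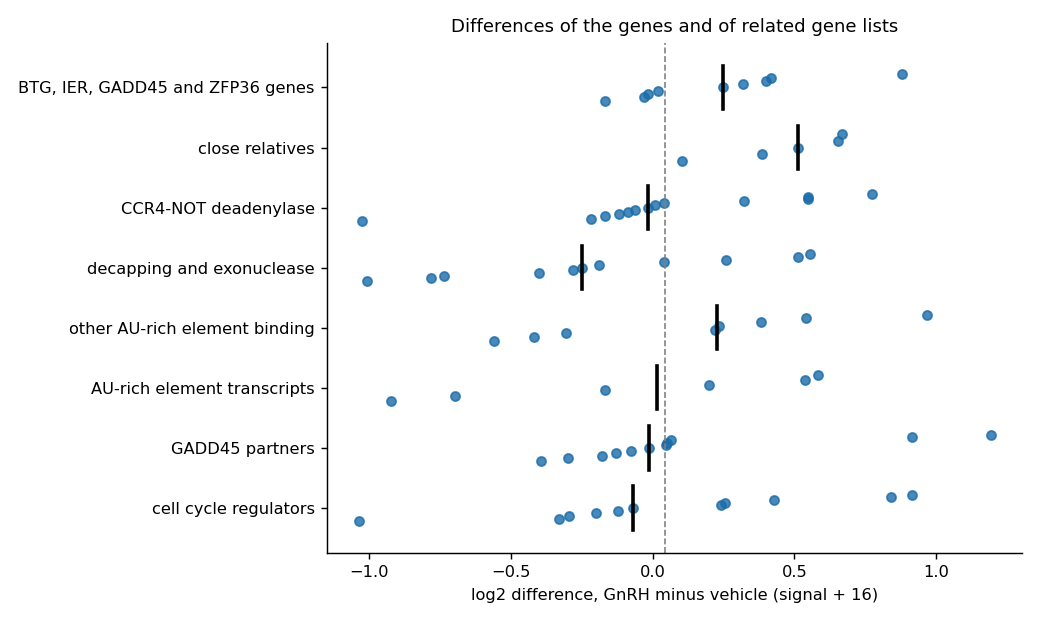
The log2 difference, GnRH minus vehicle, of each tested gene is plotted by list, with the median of each list as a bar and the median over all genes as a dashed line. The medians run from -0.25 for decapping and exonuclease genes to 0.51 for close relatives, and single genes spread on both sides of 0 in every list but the close relatives. The row labelled other AU-rich element binding is the list of other RNA-binding protein genes with Mapkapk2.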

How the data were processed

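The deposited table holds 1 signal intensity per probe set and array (Affymetrix Rat 230 2.0) on a linear scale, made by the authors with GCOS, per the submitters' processing notes. Its version was not given in the sources used here, nor were its settings. Per the labels, each sample had 1 array, and its RNA was amplified in 2 rounds, which can distort levels and depress 5′ signal. The intensities were already scaled: trimmed means lay between 497 and 499.2. They were rescaled to 500 (2% trimmed at each end), 16 was added and log2 taken. Probe sets with a mean log2 at or above the 40th percentile were tested with limma 3.58.1 in R 4.3.3 (lmFit, eBayes with an intensity trend, enrichment set and agent as terms, Benjamini-Hochberg threshold 0.05). Symbols came from the platform annotation: 20826 probe sets had 1 symbol, 436 several and 9780 none. A gene was represented by its brightest tested probe set. Detection calls were not used here, and precision is limited by the 12 arrays.

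The members and the gene lists were chosen with earlier results of these data known. Genes named are the members, their close relatives, up to 3 genes with the smallest p in each further list, up to 3 genes most like each member, and any gene past the adjusted threshold. Scaling, filter, pseudocount, model terms and omitted arrays were varied. After the main scaling, array medians over all probe sets still differed by 0.0986 (GnRH minus vehicle), 0.714 (set II minus I) and 0.401 (set III minus I) in log2. Members' differences include these shifts. In data simulated for GnRH against vehicle over 18625 probe sets, the fit called 18, 54, 78 and 100% of 50 probe sets changed by 1, 2, 3 and 4 log2 units, with 4 false calls. More probe sets passed there than the 1 called on the arrays, which makes the adjusted threshold easier to pass. These shares can therefore overstate recovery on the arrays.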

Additional observations from a re-analysis of the deposited data

Results flagged for a closer look

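Zfp36 on GnRH 5 had a signal of 1164, apart from the other 5 GnRH arrays, which ran from 660.4 to 731. The gap to its nearest neighbour was 0.821 of the range of the 6 GnRH arrays on the log2 scale, above Dixon's 95% critical value for 6 samples. Of 22 groups of member values checked this was the 1 that passed, and chance passes about 1 group in 20. Without that array the log2 difference of Zfp36 was -0.11, against 0.02 with it.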

How the results depend on the processing

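No member was called in any of its 28 alternatives, and the smallest limma adjusted p among them was 0.647 (Ier5 and Zfp36l1). The count of called probe sets over all arrays, 1, became 0 with a pseudocount of 1, a filter at the 60th percentile, quantile normalization, median centring, no set term, the replicate block, no intensity trend and each enrichment set alone. It became 2 with array quality weights and 2834 under the fold and concordance rule, which called 1 member, and leaving out 1 array gave 0 to 1, while the members' count stayed at 0. Replicate numbers are shared between agents, but same-numbered samples did not all deviate together (correlations of deviations from the agent means -0.222 to 0.649, and -0.138 to -0.0262 with the set removed). Replicate 1 alone correlated best with its own number in both directions, and with the replicate block limma called 0 probe sets and 0 members. Btg1 changed sign with quantile normalization (0.0386), array quality weights (0.18), the spike-in covariate (0.24), without vehicle 3 and 5 together (0.00555), and in sets I (0.40) and II (0.58). Zfp36 changed sign with quantile normalization (-0.0434), median centring (-0.0789), the spike-in covariate (-0.0121) and in set II (-0.73). Single sets also turned Ier2 (I, -0.10), Ier3 (I, 0.14, and II, 0.25), Zfp36l1 (I, -0.12), Gadd45a (II, -0.081), Ier5 (III, -0.42), Gadd45b (III, -0.37) and Gadd45g (III, 0.21). Leaving out 1 array gave Btg1 -0.21 to 0.23, Ier2 0.03 to 0.48, Ier3 -0.40 to 0.0683, Ier5 0.18 to 0.57, Gadd45a 0.57 to 1.41, Gadd45b 0.07 to 0.44, Gadd45g -0.24 to 0.22, Zfp36 -0.11 to 0.12 and Zfp36l1 0.03 to 0.65. The alternatives for levels between sets, and the omission of vehicle 3 or 5 for gene lists, were chosen after seeing the data. Of 1122 probe sets whose level differed between sets, the count was 618 with quantile normalization, 3293 with median centring, 4058 with array quality weights, 26 with the spike-in covariate, 503 with no intensity trend, 3806 without vehicle 3 and 5 together, and 127 to 2332 leaving out 1 array. Set II minus set I changed sign for Zfp36 with median centring (-0.20) and for Gadd45a with the spike-in covariate (0.0553) and without vehicle 3 and 5 together (0.26), and leaving out 1 array gave Gadd45a -0.98 to 0.25. The count whose response differed between sets, 0, was 0 to 815 leaving out 1 array, the highest without vehicle 4. The cause of these changes was not tested.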

Other observations

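Over the 12 arrays, centred within sets, 36 pairs of members were compared by exact permutation within sets. Gadd45g and Zfp36l1 ran opposite to each other, with Pearson r = -0.63 (exact permutation p = 0.00094, adjusted 0.0338) and Spearman rho = -0.748 (exact permutation p = 0.0026, adjusted 0.0936). Without vehicle 2 and vehicle 5, the arrays farthest out for Gadd45g, r was -0.692. Vehicle 3, the lowest array for Zfp36l1 (503 signal units), was kept there. The share of all gene pairs with such an r was not counted, and the part of differences between whole arrays was not tested. No other pair passed after adjustment. Ier5 and Zfp36l1 had r = 0.762 (exact permutation p = 0.065, adjusted 0.39; rho = 0.692, exact permutation p = 0.0253, adjusted 0.455), and r was 0.38 without vehicle 3 and GnRH 3.

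The genes most like each member over the same 12 set-centred arrays, which share library and hybridisation, were ranked among 10679 genes as a description. Rab12 was the most like Zfp36l1 (r = 0.993), ahead of Nlk and Slc33a1 (0.986 each). Elf2 was the most like Ier5 (r = 0.982), Ep300 like Btg1 (0.965), Sort1 like Ier3 (0.965), Rpl18 like Gadd45g (0.951) and Xpo6 like Gadd45b (0.939). Camta1 was the most like Ier2 (r = 0.936), which was 0.698 without vehicle 6 and GnRH 6. Pbk was the most like Zfp36 (r = 0.911), and Ppp1r13l, which encodes an inhibitor of p53, the most like Gadd45a (0.877).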
